A study of Homo sapiens with 15 samples.

Results

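Metallothioneins are small cysteine-rich proteins that bind zinc and copper and take up cadmium. Their genes are switched on by metal ions through the transcription factor MTF1, which binds metal response elements in their promoters, and MT2A and several MT1 genes also respond to glucocorticoids and oxidative stress. In endothelial cells they are known for buffering free zinc. Of 9 listed family genes, 8 were measured among 18417 genes: the MT1 isoforms MT1E, MT1F, MT1G, MT1H, MT1M and MT1X, the main human isoform MT2A, and MT3, best known from brain. No probeset carried MT1A as its only symbol, and MT1A was not analysed here. Each gene was read from the probeset with that gene as its only symbol and the highest mean over the 15 arrays. The copies share sequence, so a value given for 1 member may hold signal from another.

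RNA was read on Affymetrix whole-transcript arrays as log2 signal in 5 groups of 3 arrays: RNA of JINB8 exosomes, RNA of JK exosomes, human umbilical vein endothelial cells (HUVEC) kept for 6 h with JINB8 exosomes, HUVEC kept for 6 h with JK exosomes, and untreated HUVEC. JK stands for Jurkat, a human T cell leukaemia line, and JINB8 (JinB8) for its CD47-deficient mutant, a mutant line, so CD47 loss and other differences between these lines cannot be told apart. Exosomes were precipitated from conditioned medium of cells grown with human serum, HUVEC were kept in EGM2 medium, and the labels name no mock-exposed HUVEC. They do not say that replicates were separate cultures, so every p-value here rests on the spread between arrays, which may be technical.

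The array medians averaged 5.12 and 5.11 in JINB8 and JK exosome RNA, 5.11 and 5.14 in HUVEC with JINB8 and JK exosomes, and 6.97 in untreated HUVEC. Comparisons with untreated HUVEC were therefore made on values quantile-normalized over the 9 HUVEC arrays, and all others on the deposited values. All untreated arrays stood on the higher level, so a difference in array processing and the exposure cannot be told apart in those comparisons. All 10 endothelial markers listed were above the array median in each HUVEC group. In JINB8 and JK exosome RNA 5 and 6 of the 10 were above it. The 12 T cell markers had a median deposited level of 6.24 in JINB8 and 6.05 in JK exosome RNA. It was 3.97 in HUVEC with JINB8 exosomes, 3.92 with JK exosomes, and 5.79 in untreated HUVEC, whose arrays stood on the higher level. Above the array median were 9 of 12 T cell markers in each exosome group and 2 of 12 in each HUVEC group.

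The 9 listed genes lie within 94669 bases of chromosome 16, from base 56589528, where MT3 starts, to base 56684196, where MT1X ends (RefSeq, GRCh38.p14). The promoter table given by RefSeq on that build held 3 of the 9: MT2A, MT1H and MT1X. Their promoters are printed because they are the members found there and hold the motif through which metals are known to act on these genes. Each sequence is the 250 bases before the gene's start on the plus strand, chr16:56608334-56608583 for MT2A, chr16:56669564-56669813 for MT1H and chr16:56682220-56682469 for MT1X. Capitals mark matches to the metal response element core, searched as TGCACNC and TGCGCNC on both strands.
MT2A: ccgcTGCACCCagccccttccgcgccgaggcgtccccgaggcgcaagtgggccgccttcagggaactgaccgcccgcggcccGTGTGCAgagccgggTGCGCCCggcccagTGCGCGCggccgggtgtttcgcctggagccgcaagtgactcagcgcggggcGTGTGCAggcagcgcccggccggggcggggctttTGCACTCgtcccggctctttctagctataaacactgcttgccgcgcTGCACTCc
MT1H: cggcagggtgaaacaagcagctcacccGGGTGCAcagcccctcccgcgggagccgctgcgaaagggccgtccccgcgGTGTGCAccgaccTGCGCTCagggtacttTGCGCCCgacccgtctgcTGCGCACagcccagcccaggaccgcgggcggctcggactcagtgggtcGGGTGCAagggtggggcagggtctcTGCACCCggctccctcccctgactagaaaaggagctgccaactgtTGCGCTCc
MT1X: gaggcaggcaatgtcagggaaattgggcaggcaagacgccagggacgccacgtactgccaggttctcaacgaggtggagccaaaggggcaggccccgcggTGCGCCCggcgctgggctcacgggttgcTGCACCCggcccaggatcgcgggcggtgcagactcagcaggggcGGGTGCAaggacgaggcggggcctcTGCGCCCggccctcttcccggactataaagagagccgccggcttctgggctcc
The MT2A window held 7 matches, the MT1H window 8 and the MT1X window 4, none overlapping another. Each of the 3 had a match beginning at base -53 or -54, counted back from the first base of the gene, and MT2A and MT1H had a further one at -8 to -2. Among 35116 promoter windows of the same length, 24.8% held at least 1 match, 0.37% at least 4, 0.0313% at least 7 and 0.0171% at least 8. The windows of MT1B and MT4, family genes outside the list, held 3 each, a count that 1.58% of all windows reached. A match in letters is a description and not evidence of binding.

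After 6 h with exosomes, 6 of the 8 measured metallothionein genes were lower than in untreated HUVEC with either kind of exosome: MT1E, MT1F, MT1G, MT1H, MT1M and MT1X. No member was higher, and MT2A and MT3 did not pass (limma, Benjamini-Hochberg adjusted p under 0.05). Among all 18417 genes, 23.3% were lower and 26% higher with JINB8 exosomes, and 22.4% were lower and 26.2% higher with JK exosomes. The median log2 difference of the 8 members was -0.61 with JINB8 and -0.78 with JK exosomes, against 0.02 over all genes in both comparisons. Fewer cells of a type and less RNA per cell cannot be told apart in these bulk samples. Both comparisons use the same 3 untreated arrays, so their values are not independent of each other.

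MT1X, an MT1 isoform expressed in many tissues, had the largest difference of the members. Its quantile-normalized log2 signal was 6.97, 6.94 and 6.47 with JINB8 exosomes, 6.40, 6.76 and 6.60 with JK exosomes, and 8.31, 8.61 and 8.60 in untreated HUVEC. Every treated array was below every untreated array by more than 1 log2 unit. The log2 difference from untreated HUVEC was -1.71 ± 0.145 with JINB8 exosomes (SE, adjusted p = 3.84e-06) and -1.92 ± 0.145 with JK exosomes (adjusted p = 1.83e-06), which is 3.27-fold and 3.78-fold lower. Counted from the most negative log2 difference, MT1X stood at place 164 of 18417 with JINB8 and at place 114 with JK exosomes.

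MT1E and MT1F, a pair of widely expressed isoforms, followed at smaller size. The quantile-normalized log2 signal of MT1E was 7.61, 7.63 and 7.53 with JINB8 exosomes, 7.53, 7.56 and 7.64 with JK exosomes, and 8.30, 8.44 and 8.56 in untreated HUVEC. That of MT1F was 7.84, 8.03 and 7.52 with JINB8 exosomes, 7.46, 7.78 and 7.68 with JK exosomes, and 8.26, 8.67 and 8.59 in untreated HUVEC. The treated arrays lay below all untreated arrays for both genes, by a clear gap for MT1E and a narrower one for MT1F. MT1E fell by 0.84 ± 0.086 with JINB8 exosomes (SE, adjusted p = 1.47e-05) and by 0.86 ± 0.086 with JK exosomes (adjusted p = 1.37e-05) on the log2 scale. MT1F fell by 0.71 ± 0.145 (adjusted p = 0.00188) and by 0.87 ± 0.145 (adjusted p = 0.000522) in the same comparisons.

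MT1G, a gene often silenced by promoter methylation in tumours, had quantile-normalized log2 signals of 10.19, 10.08 and 9.85 with JINB8 exosomes, 9.85, 10.11 and 10.03 with JK exosomes, and 10.54, 10.75 and 10.86 in untreated HUVEC. The groups did not overlap, and the log2 difference was -0.68 ± 0.117 with JINB8 exosomes (SE, adjusted p = 0.000613) and -0.72 ± 0.117 with JK exosomes (adjusted p = 0.000422). With each array centred on its median instead, the MT1G difference was -0.14 with JINB8 exosomes (adjusted p = 0.31) and -0.25 with JK exosomes (adjusted p = 0.0804), and the call was lost. Over all alternatives run, the adjusted p of MT1G ran from 5.98e-10 to 0.31 with JINB8 exosomes and from 5.07e-10 to 0.0804 with JK exosomes.

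MT1H and MT1M lay low in the range of signal on the treated arrays, and both were lower than in untreated HUVEC. The quantile-normalized log2 signal of MT1H was 5.12, 5.29 and 5.22 with JINB8 exosomes, 4.91, 4.80 and 5.06 with JK exosomes, and 5.61, 5.73 and 5.95 in untreated HUVEC. That of MT1M, a gene known for its expression in liver, was 5.51, 5.50 and 5.33 with JINB8 exosomes, 5.27, 5.41 and 5.47 with JK exosomes, and 5.87, 5.89 and 6.16 in untreated HUVEC. Neither gene's treated arrays reached its untreated arrays. The log2 difference of MT1H was -0.55 ± 0.105 with JINB8 exosomes (SE, adjusted p = 0.00117) and -0.84 ± 0.105 with JK exosomes (adjusted p = 7.03e-05). That of MT1M was -0.52 ± 0.101 (adjusted p = 0.00131) and -0.58 ± 0.101 (adjusted p = 0.000641). Detection calls were not used here, so the distance of these signals from background is unknown.

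MT3, known as a growth inhibitory factor of neurons, did not pass in either comparison. Its quantile-normalized log2 signal was 7.42, 7.42 and 7.46 with JINB8 exosomes, 7.01, 7.57 and 7.50 with JK exosomes, and 7.15, 7.62 and 7.89 in untreated HUVEC. The untreated arrays alone spread over a wider range than either treated group, and all 3 groups overlapped. The log2 difference was -0.12 ± 0.181 with JINB8 exosomes (SE, adjusted p = 0.605) and -0.20 ± 0.181 with JK exosomes (adjusted p = 0.395).

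MT2A gave no difference that could be read on the quantile scale. Its deposited log2 signal was 12.74, 12.70 and 12.62 with JINB8 exosomes, 12.61, 12.61 and 12.61 with JK exosomes, and 13.46, 13.52 and 13.57 in untreated HUVEC. These values ranked between 1 and 3 of 18417 on every HUVEC array. Quantile normalization gives genes of 1 rank the same value on every array, so the 9 arrays held only 3 distinct values of MT2A and their difference was 0.02 with JINB8 (adjusted p = 0.839) and -0.02 with JK exosomes (adjusted p = 0.822). Between deposited values it was -0.83 with JINB8 and -0.90 with JK exosomes, while the median of all genes shifted by -1.71 and -1.68. After median centring, which moved the median of all genes to 0.13 and 0.10, MT2A was higher by 1.01 with JINB8 exosomes (adjusted p = 1.14e-06) and by 0.88 with JK exosomes (adjusted p = 4.15e-06). Cyclic loess gave 0.12 and 0.08, and neither passed.

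The other 2 MT2A probesets were taken up after the data had been seen. Probeset 8095376 had a log2 difference of -0.16 with JINB8 exosomes (adjusted p = 0.0939) and -0.31 ± 0.076 with JK exosomes (SE, adjusted p = 0.00606) on the quantile scale, fitted over 19460 probesets. Probeset 7995783 had -0.10 (adjusted p = 0.279) and -0.17 (adjusted p = 0.0653). These 2 probesets were fitted singly against untreated HUVEC on the quantile scale only, and both stood below 0 there. The deposited log2 signal of 8095376 was 12.07, 12.10 and 12.08 with JK exosomes, and 13.24, 13.30 and 13.35 in untreated HUVEC. On that scale the median of all genes shifted by -1.68. The direction of the kept MT2A probeset against untreated HUVEC differed with the scale.

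**Figure D1:**
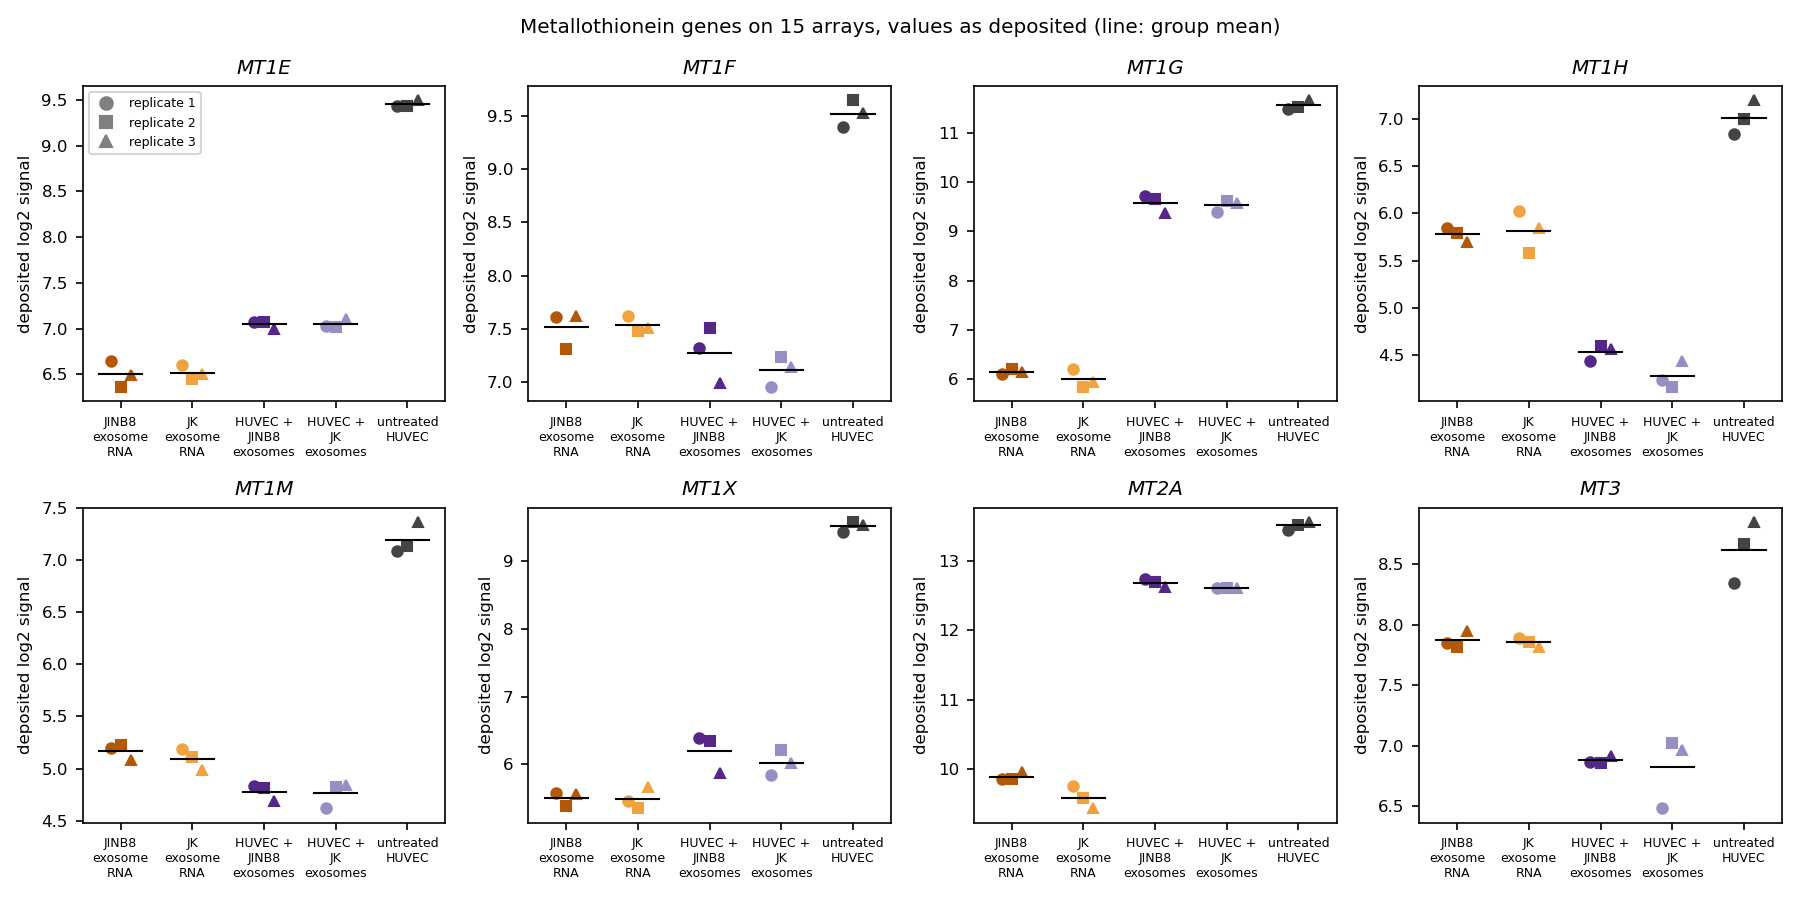
Deposited log2 signal (y axis) of the 8 measured metallothionein genes, 1 panel a gene, in JINB8 exosome RNA, JK exosome RNA, HUVEC with JINB8 exosomes, HUVEC with JK exosomes and untreated HUVEC (x axis). Points are arrays with their shape by replicate and lines are group means. MT2A and MT1G stand lower in exosome RNA than in HUVEC, MT1H and MT3 stand higher in exosome RNA than in treated HUVEC, and the untreated arrays include the overall level shift of the deposited values.

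**Figure D2:**
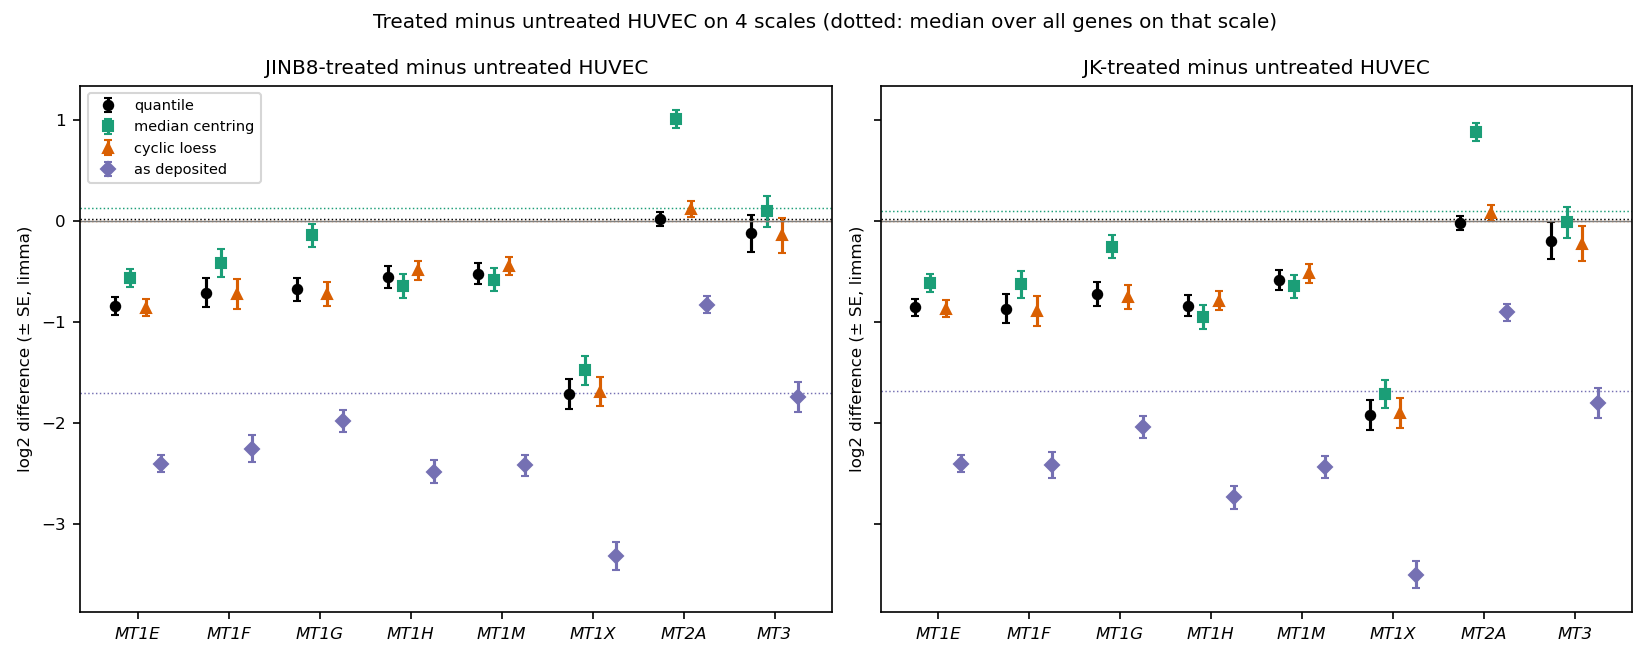
Log2 difference from untreated HUVEC (y axis) for each member (x axis) with JINB8 exosomes (left) and JK exosomes (right), on 4 scales marked by shape. Bars are limma standard errors and dotted lines the median over all genes on that scale. MT1X lies lowest on each scale, and MT2A moves between -0.90 and 1.01 with the scale.

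The 6 members that were lower on the quantile scale were below untreated HUVEC on all 4 scales tried, and all but MT1G passed on each. On the deposited scale, where all genes shifted by -1.71 with JINB8 and -1.68 with JK exosomes, MT1X stood at -3.31 and -3.50 and the other 5 between -2.73 and -1.98. All 8 members passed as lower on that scale, as nearly all genes did, and set against the shift MT1X was again lowest. Leaving out any 1 of the 6 arrays compared left 6 members lower and 0 higher in each comparison. The arrays of the third HUVEC group, which shared the fit, were not left out.

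Of 7 other family genes taken up, among them pseudogenes, 6 were measured. Of these, 2 were lower with JINB8 exosomes and 4 with JK exosomes, and none was higher. Among all genes 23.3% were lower with JINB8 and 22.4% with JK exosomes, and 26% and 26.2% were higher. These counts were not tested against the shares. The pseudogene MT1DP had log2 differences of -1.28 (adjusted p = 8.72e-06) and -1.34 (adjusted p = 6.38e-06), and the pseudogene MT1JP -0.61 (adjusted p = 0.000521) and -0.69 (adjusted p = 0.000234). The pseudogene MT1IP had -0.34 with JINB8 exosomes (limma, adjusted p = 0.0571) and -0.44 with JK exosomes (adjusted p = 0.0209). MT4, known from squamous epithelium, had -0.23 (adjusted p = 0.0562) and -0.29 (adjusted p = 0.0212). MT1B had 0.19 and 0.09 and MT1HL1 -0.26 and -0.35, and none of these passed. After median centring MT1B passed as higher with JINB8 exosomes, at 0.38 (adjusted p = 0.0144). MT1P3, a further metallothionein symbol not among the 7, had -2.06 with JINB8 exosomes (adjusted p = 7.51e-07) and -2.25 with JK exosomes (adjusted p = 4.41e-07). These came from limma on the quantile scale over 19460 probesets and were larger in size than those of MT1X. MT1P3 was not run on the other scales, and its gene type and position were not looked up. Whether the pseudogene probesets read RNA of the intact copies was not tested.

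Genes that move or sense metals, like the full set of genes on the arrays, changed in both directions. Of 34 measured, 10 were higher and 10 lower with JINB8 exosomes, and 11 higher and 9 lower with JK exosomes, with median log2 differences of 0.08 and 0.01. Among all genes, 26% were higher and 23.3% lower with JINB8, and 26.2% higher and 22.4% lower with JK exosomes. The counts of this list and of those that follow were not tested against these shares. Their counts after median centring and loess are given without a share over all genes. After median centring 15 were higher and 4 lower with JINB8, and 13 higher and 3 lower with JK exosomes. MTF1, the metal-sensing activator of metallothionein genes, stood at 0.20 with JINB8 (adjusted p = 0.1) and -0.16 with JK exosomes (adjusted p = 0.177). SLC30A1, the plasma membrane zinc exporter that MTF1 also controls, stood at -0.02 (adjusted p = 0.842) and 0.08 (adjusted p = 0.368). After median centring SLC30A1 was at 0.24 (adjusted p = 0.0397) and 0.30 (adjusted p = 0.0144), and MTF1 at 0.51 (adjusted p = 0.000982) and 0.07 (adjusted p = 0.573). The zinc importers SLC39A6 (ZIP6) and SLC39A8 (ZIP8) were lower, at -0.93 and -1.04 with JINB8 exosomes and at -1.04 and -1.06 with JK exosomes. SLC30A4 and SLC30A6, transporters that move zinc into vesicles and the Golgi, were higher, at 0.91 and 0.55 with JINB8 exosomes and at 0.83 and 0.54 with JK exosomes. The highest adjusted p of these 4 genes on the quantile scale was 0.000153, for SLC39A6 with JINB8 exosomes. The signs of these 4 were the same after median centring and loess, while on the deposited scale every gene of this list was lower.

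Genes known to rise with glucocorticoids, which also act on MT2A, changed in both directions too, like the full set of genes. Of 11 measured, 2 were higher and 3 lower with JINB8 exosomes, and 2 higher and 4 lower with JK exosomes. The shares over all genes were 26% and 23.3% with JINB8, and 26.2% and 22.4% with JK exosomes. The kinase SGK1 had log2 differences of -1.86 (adjusted p = 5.19e-06) and -2.01 (adjusted p = 3.26e-06), and the transcription factor KLF9 -0.48 (adjusted p = 0.00158) and -0.43 (adjusted p = 0.00287). TSC22D3, which encodes the anti-inflammatory protein GILZ, had 0.66 and 0.64, and the nucleotide hydrolase SAMHD1 0.76 and 0.87, with adjusted p of 0.00148 or lower. Their median was -0.16 with JINB8 and -0.27 with JK exosomes on the quantile scale, and 0.20 and 0.01 after median centring, where 4 were higher and 3 lower with JINB8, and 4 higher and 4 lower with JK exosomes.

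Among 11 other genes of metal, oxidative and heat stress, 4 were higher and 4 lower with JINB8 exosomes, and 3 higher and 4 lower with JK exosomes. All genes gave 26% higher and 23.3% lower with JINB8, and 26.2% higher and 22.4% lower with JK exosomes. HMOX1, heme oxygenase 1, had -1.55 (adjusted p = 7.43e-06) and -1.49 (adjusted p = 1.04e-05), and the cystine importer SLC7A11 -1.28 (adjusted p = 1.75e-06) and -1.21 (adjusted p = 2.82e-06). Sulfiredoxin, SRXN1, had -0.46 (adjusted p = 0.00734) and -0.61 (adjusted p = 0.00136); after median centring it did not pass with JINB8 exosomes (adjusted p = 0.306). GCLC, which makes the first step of glutathione synthesis, was higher by 0.87 (adjusted p = 0.000277) and 0.85 (adjusted p = 0.000342). Median centring gave 5 higher and 2 lower with JINB8, and 3 higher and 3 lower with JK exosomes, and loess 2 higher and 4 lower with JINB8 exosomes.

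The genes beside the cluster on chromosome 16, like the full set of genes, changed in both directions. Of 10 measured, 3 were higher and 4 lower with JINB8 exosomes, and 4 higher and 2 lower with JK exosomes. Over all genes 26% were higher and 23.3% lower with JINB8, and 26.2% higher and 22.4% lower with JK exosomes. BBS2, of the ciliary BBSome complex, was higher by 0.77 and 0.83, and the kidney salt transporter gene SLC12A3 by 0.43 in both comparisons. The cleavage factor gene NUDT21 had 0.30 with JINB8 (adjusted p = 0.0595) and 0.60 with JK exosomes (adjusted p = 0.00176), and the nuclear pore gene NUP93 -0.47 (adjusted p = 0.00244) and -0.27 (adjusted p = 0.0461). After median centring 5 were higher and 2 lower with JINB8, and 5 higher and 1 lower with JK exosomes, and NUP93 passed in neither. After loess 4 were higher and 3 lower with JK exosomes.

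Between HUVEC with JINB8 exosomes and HUVEC with JK exosomes, 0 of the 8 members passed, as did 0% of all genes. Across all genes limma gave 821 higher and 857 lower at an unadjusted p under 0.05, and the smallest adjusted p was 0.0644. With a variance trend and robust fitting 23 genes passed, none of them a member. The log2 differences of the members ran from -0.00051 for MT1E to 0.25 for MT1H, with a median of 0.07 against -0.02 over all genes, and 7 of 8 were above 0. MT1H had deposited log2 signals of 4.44, 4.59 and 4.57 with JINB8 exosomes, and 4.23, 4.17 and 4.44 with JK exosomes. The highest JK array came level with the lowest JINB8 array, and the difference was 0.25 (95% interval 0.013 to 0.49, adjusted p = 0.53). The intervals of MT1X, from -0.12 to 0.48, of MT1F, from -0.12 to 0.44, and of MT3, from -0.27 to 0.38, leave room for differences in either direction. MT2A was the member whose groups did not overlap, higher on all 3 JINB8 arrays by 0.08 on average (limma, 95% interval -0.10 to 0.26, adjusted p = 0.823). The share of all genes without overlap was not counted, so this separation cannot be set against one.

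Within the treated groups the members varied together to some degree. On replicate 1 with JK exosomes 7 of 8 members were below their group mean, and on replicate 3 with JINB8 exosomes 6 of 8, with median deviations of -0.139 and -0.0768 against -0.00203 and 0.0105 over all genes. In untreated HUVEC all 8 members were below the mean on replicate 1 and 0 of 8 on replicate 3. Across the 6 treated arrays the deviations of MT1G and MT1X from their group means correlated at 0.97, and over the 28 pairs of members the correlations ran from -0.40 to 0.97 with a median of 0.54. These are descriptions of 6 arrays, which share processing, and probesets that share sequence.

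RNA of JINB8 and JK exosomes also gave 0 of 8 members past the threshold, where 0.679% of all genes passed. MT2A came nearest. Its deposited log2 signal was 9.85, 9.85 and 9.96 in JINB8 exosome RNA, and 9.75, 9.58 and 9.43 in JK exosome RNA. All JINB8 arrays were above all JK arrays, and the difference was 0.30 ± 0.090 (SE, 95% interval 0.11 to 0.50, unadjusted p = 0.00549, adjusted p = 0.249). The other MT2A probesets were also higher on every JINB8 array. Probeset 7995783 had 7.55, 7.61 and 7.62 in JINB8 exosome RNA, against 7.37, 7.02 and 7.02 in JK exosome RNA, a log2 difference of 0.45 ± 0.098 (SE, adjusted p = 0.0703). Probeset 8095376 had 9.04, 9.07 and 9.07, against 8.91, 8.79 and 8.68, a difference of 0.27 ± 0.080 (adjusted p = 0.253). All 3 probesets may read the same RNA and are not independent measurements. The other 7 members had overlapping groups and differences from -0.04 for MT1H to 0.15 for MT1G, and the member median was 0.02 against 0.00314 over all genes. How many of all genes had groups without overlap was not counted here either.

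**Figure D3:**
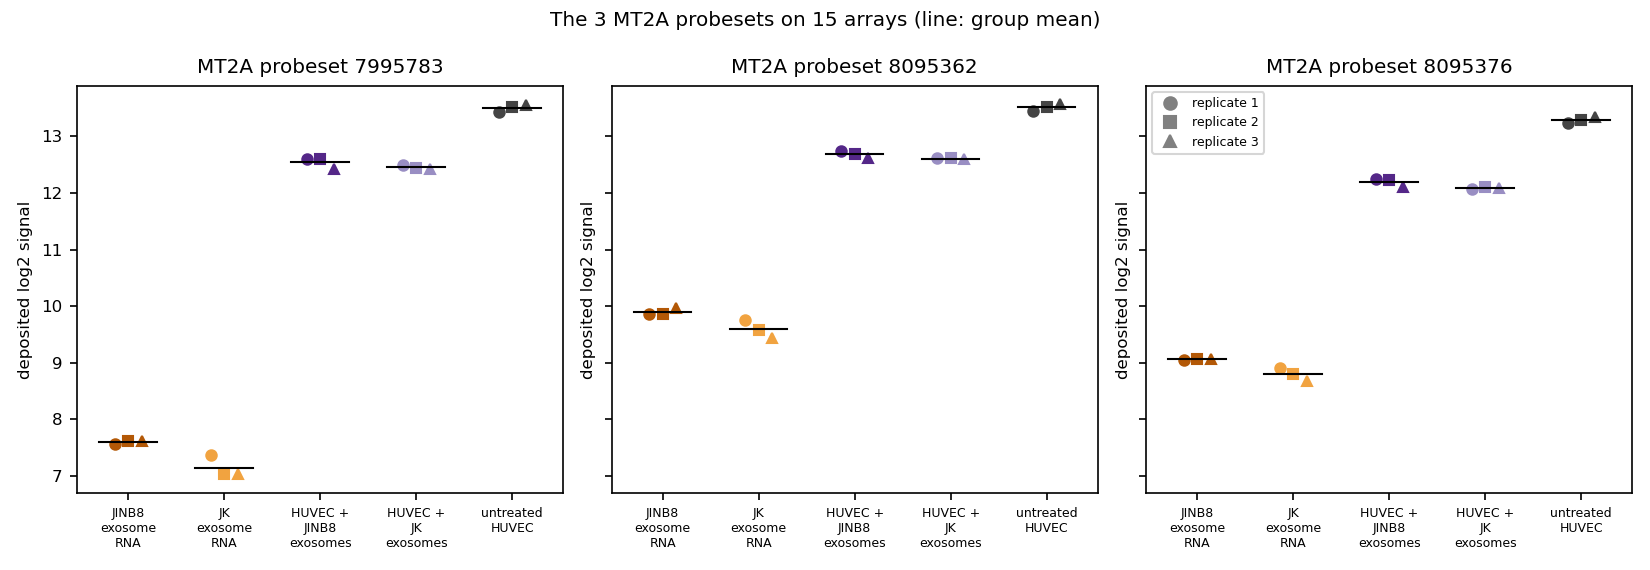
Deposited log2 signal (y axis) of the 3 MT2A probesets, 1 panel each, by array in the 5 groups (x axis), with lines at group means. In each panel the JINB8 exosome RNA arrays lie above the JK exosome RNA arrays, and both lie below all HUVEC arrays.

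Exosome RNA and the RNA of treated HUVEC differed across most genes: 44.2% of genes were higher and 48.3% lower in JINB8 exosome RNA than in HUVEC with JINB8 exosomes, and 43.6% higher and 49.2% lower for JK. Against that background the 8 members split, with 3 higher and 4 lower in JINB8 exosome RNA and 4 higher and 4 lower in JK exosome RNA on the deposited scale. On the quantile scale 5 were higher and 2 lower in each pair, and after loess 5 were higher and 0 lower. Median centring gave 4 higher and 3 lower for JINB8, and 4 higher and 2 lower for JK. The shares above hold for the deposited scale, and none is given for the other scales, so these counts cannot be set against one. All 12 T cell markers were higher in exosome RNA in both pairs, and 9 of 10 endothelial markers were lower (7 of 10 on the quantile scale and after loess, where 11 of the T cell markers passed). The part of these cell types in the members' differences was not tested. The SD over probesets was 1.49 to 1.55 on exosome arrays and 2.18 to 2.23 on treated HUVEC arrays, so the scale matters here, and each direction is given with its behaviour on the other scales.

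MT1H and MT3 were higher in exosome RNA on all 4 scales. The deposited log2 signal of MT1H was 5.85, 5.79 and 5.70 in JINB8 exosome RNA, 6.03, 5.58 and 5.85 in JK exosome RNA, 4.44, 4.59 and 4.57 in HUVEC with JINB8 exosomes, and 4.23, 4.17 and 4.44 in HUVEC with JK exosomes. That of MT3 was 7.85, 7.82 and 7.95 in JINB8 exosome RNA, 7.89, 7.86 and 7.82 in JK exosome RNA, 6.87, 6.86 and 6.91 in HUVEC with JINB8 exosomes, and 6.48, 7.02 and 6.96 in HUVEC with JK exosomes. Each exosome array was above each treated HUVEC array for both genes. MT1H differed by 1.25 ± 0.106 for JINB8 (SE, adjusted p = 8.1e-09) and 1.54 ± 0.106 for JK (adjusted p = 4.89e-10). MT3 differed by 0.99 ± 0.111 (adjusted p = 2.63e-07) and 1.03 ± 0.111 (adjusted p = 1.58e-07). On the other 3 scales MT1H lay between 0.92 and 2.10 and MT3 between 1.38 and 3.98.

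MT2A and MT1G were far lower in exosome RNA on the deposited scale. MT1G had deposited log2 signals of 6.09, 6.21 and 6.13 in JINB8 exosome RNA, 6.20, 5.84 and 5.95 in JK exosome RNA, 9.73, 9.65 and 9.38 in HUVEC with JINB8 exosomes, and 9.40, 9.62 and 9.58 in HUVEC with JK exosomes. No exosome array came within 3 log2 units of a treated HUVEC array. The MT1G difference was -3.45 ± 0.108 for JINB8 and -3.54 ± 0.108 for JK (SE), which is 10.9-fold and 11.6-fold lower. MT2A, with the exosome and HUVEC signals given above, differed by -2.80 ± 0.084 for JINB8 and -3.03 ± 0.084 for JK, which is 6.96-fold and 8.14-fold lower. The size depended on the probeset: 7995783 of MT2A differed by -4.95 for JINB8 and -5.31 for JK, and 8095376 by -3.14 and -3.29. On the quantile scale the differences shrank to -1.26 and -1.44 for MT1G and to -0.79 and -0.69 for MT2A. Cyclic loess turned MT2A round, to 2.65 for JINB8 and 3.09 for JK, and left MT1G at -0.08 (adjusted p = 0.482) and -0.06 (adjusted p = 0.637).

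The other 4 members differed less on the deposited scale, and the direction of MT1E, MT1X and MT1M changed with the scale. MT1E had deposited differences of -0.55 for JINB8 and -0.53 for JK, but 1.15 and 1.23 on the quantile scale. MT1X had -0.70 and -0.53 on the deposited scale, and 0.06 (adjusted p = 0.703) and 0.22 (adjusted p = 0.183) on the quantile scale. MT1M had 0.39 (adjusted p = 0.00044) and 0.33 (adjusted p = 0.00167) on the deposited scale, and -0.08 and -0.11 after loess. MT1F was above 0 on all 4 scales in both pairs. It had 0.24 ± 0.122 for JINB8 (SE, adjusted p = 0.0695) and 0.43 ± 0.122 for JK (adjusted p = 0.00356), with 2.45 and 2.70 on the quantile scale, 0.63 and 0.87 after median centring and 3.13 and 3.38 after loess, where all passed. For JINB8 the deposited value of MT1F passed when replicate 2 of the exosome arrays was left out (0.34, adjusted p = 0.0206) or replicate 2 of the HUVEC arrays (0.36, adjusted p = 0.0125). Leaving out other arrays brought it as low as 0.10, and its highest adjusted p (limma) over all alternatives was 0.394.

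**Figure D4:**
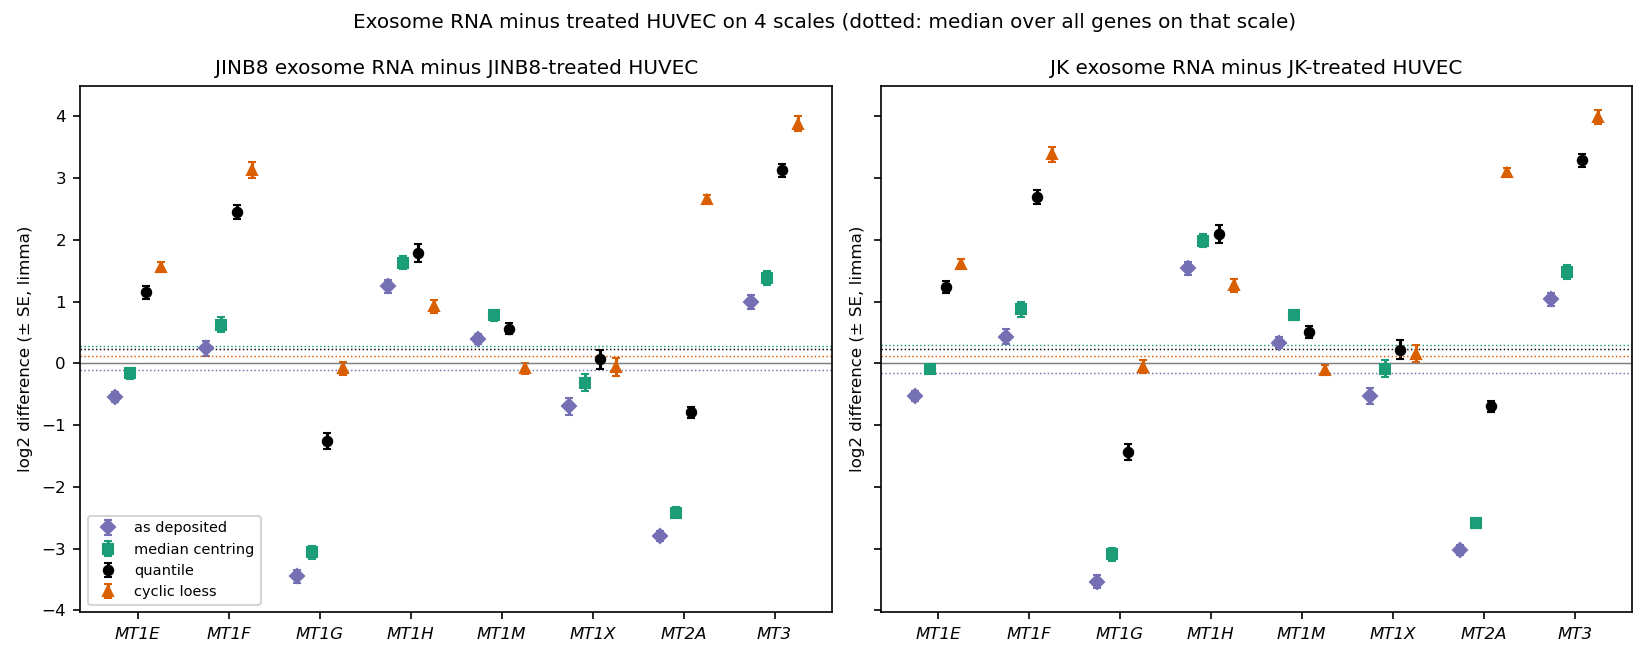
Log2 difference of exosome RNA minus treated HUVEC (y axis) for each member (x axis), for JINB8 (left) and JK (right), on 4 scales marked by shape. Bars are limma standard errors and dotted lines the median over all genes on that scale. MT1H, MT3 and MT1F lie above 0 on each scale, while MT2A runs from -2.80 to 2.65 for JINB8 and from -3.03 to 3.09 for JK.

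The exosome source did not change these differences past the threshold for any member. In a limma contrast of the JINB8 pair minus the JK pair, 0 of 8 members passed, where 145 of 18417 genes did. The smallest unadjusted p among members were 0.0686 for MT1H, at -0.29 ± 0.150 (SE), and 0.0748 for MT2A, at 0.23 ± 0.118. On the deposited scale 44.2% of all genes were higher in JINB8 exosome RNA and 43.6% in JK exosome RNA than in the matching HUVEC. Among the other family genes, 4 of 6 were higher for JINB8 and 5 of 6 for JK there, and none was lower. On the other 3 scales, for which no share over all genes is given, all 6 were higher in both pairs. Of these 6, the largest differences were those of MT4, 1.32 and 1.36, MT1B, 1.09 and 1.04, and MT1HL1, 0.95 and 0.94. MT1P3, a metallothionein symbol outside these 6, had larger ones on the deposited scale. They were 1.61 for JINB8 (limma, adjusted p = 1.01e-09) and 1.80 for JK (adjusted p = 2.25e-10), fitted over 19460 probesets.

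Over all 15 arrays, quantile-normalized together, the members did not share 1 profile. The mean of their standardised values, which includes each of them, correlated with MT1M at 0.94, with MT1E at 0.91 and with MT1H at 0.82. Its correlation was -0.40 with MT1G and -0.63 with MT2A. The 5 genes outside the family nearest to that mean profile were UGT3A1 (Pearson r = 0.97), SLC66A1LP, APOD, HLX and MYL9 (0.95). UGT3A1 had low signal and moved little, with group means from 3.28 in HUVEC with JK exosomes to 3.83 in untreated HUVEC. APOD, the gene of the lipid carrier apolipoprotein D, averaged 7.71 in JINB8 and 7.70 in JK exosome RNA, 5.01 and 4.89 in HUVEC with JINB8 and JK exosomes, and 7.40 in untreated HUVEC on that scale. Their common profile was high in exosome RNA and in untreated HUVEC and low in treated HUVEC, and the differences between groups carry these correlations.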

How the data were processed

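RNA was labelled from 300 ng a sample and hybridised to Affymetrix whole-transcript arrays, per the labels' protocols. The authors deposited log2 values, judged from their range, made with Affymetrix Expression Console per the submitters' processing notes; for its settings, and for which arrays were normalized jointly, the labels name nothing. No detection calls were used, and the number of arrays limits the precision.

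Of 33297 probesets, 19460 had 1 symbol in the platform annotation, 1754 several and 12083 none; 18389 of 18417 genes matched RefSeq by Entrez identifier, which changed 0 symbols. Differences were fitted with limma 3.58.1 in R 4.3.3 (lmFit, eBayes): over the 9 HUVEC arrays after quantile normalization for comparisons with untreated HUVEC, and on deposited values over 9 arrays for JINB8 against JK exposure, 6 for exosome RNA and 12 for exosome RNA against HUVEC. P-values were Benjamini-Hochberg adjusted over all genes, with a threshold of 0.05. Scripts were tested on simulated data.

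The text names all members, the 6 other family genes measured, MT1P3, MTF1, SLC30A1 and HMOX1. It also names up to 4 passing genes a list with the smallest p, and the 5 genes most like the members. Members and lists were chosen with earlier results of these data known. Alternatives were other scales, filters, probesets, fits, the replicate number as a block, and leaving out each array of the compared groups. Replicate numbers did not pair the arrays.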

Additional observations from a re-analysis of the deposited data

How the results depend on the processing

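The scale moved several members, and the probeset moved MT2A. With JK exosomes against untreated HUVEC, MT2A probeset 8095376 passed at -0.31 (adjusted p = 0.00606) on the quantile scale, where the kept probeset did not. Probeset 8095376 was not fitted singly on the other scales in that comparison. For exosome RNA against HUVEC, probeset 7995783 gave -4.95 for JINB8 and -5.31 for JK in place of -2.80 and -3.03. Against untreated HUVEC, median centring made 1 member higher in place of 0 with JINB8 and with JK exosomes, in both cases MT2A, which stood at 0.88 with JK exosomes in place of -0.02. On deposited values MT2A stood at -0.83 with JINB8 exosomes in place of 0.02. For JINB8 exosome RNA against HUVEC, 3 members were higher on deposited values, but 5 on the quantile scale, 5 after loess and 1 without the dimmest 40% of genes, and 4 were lower, but 2 on the quantile scale and 0 after loess; median centring gave 4 higher and 3 lower. For JK exosome RNA, 4 members were higher but 2 without the dimmest genes, and 4 were lower but 2 on the quantile scale, 2 after median centring and 0 after loess. The filter left 6 members to test, without MT1H and MT1M, which accounts for its lower counts. Shares over all genes are not given for these alternatives. For JINB8 the sign turned on the quantile scale for MT1E (1.15) and MT1X (0.062) and after loess for MT1E (1.56), MT1M (-0.083) and MT2A (2.65). For JK it turned on the quantile scale for MT1E (1.23) and MT1X (0.22) and after loess for MT1E (1.60), MT1X (0.16), MT1M (-0.11) and MT2A (3.09). The cause of these turns was not tested.

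Leaving out 1 of the compared arrays gave 3 to 4 members higher in JINB8 exosome RNA, and left the other counts of members called as they were. With the replicate number as a block, 6 members were lower and 0 higher than in untreated HUVEC with either exosome, and no member's call changed. Same-numbered arrays deviated from their group means with correlations of -0.453 to 0.347, and in 8 of 18 pairings an array correlated best with its own number, so the numbers were not taken to pair samples. In the 2 comparisons of JINB8 with JK, no alternative made a member pass. Depth has no counterpart on these arrays, and signal could not be set against background.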
